A study of Homo sapiens with 12 samples.

Results

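The DNA replication machinery was followed here as 43 genes that encode the proteins loading, activating and driving the replication fork, and it was followed by transcript level after treatment of 2 ovarian cancer cell lines with THZ1, a covalent inhibitor of the transcriptional kinase CDK7 that also reaches CDK12 and CDK13. The members were the rows with the listed symbols in the expression tables, and all 43 were found among 23621 gene rows and were active (above 1 FPKM in at least 1 of 12 libraries), as were 14251 genes in all. KURAMOCHI (Ku), grown in RPMI, and COV362 (Cov), grown in DMEM, were untransduced and received DMSO, the vehicle, or THZ1 at 50 nM or 250 nM for 6 hr, with 2 replicates in each of the 6 groups. Levels are given as FPKM, reads scaled by transcript length and by library size, and had been normalized to ERCC RNAs, synthetic transcripts mixed into RNA matched by cell number, so that a fall of all transcripts remains visible. The sources number the replicates without saying whether they were separate cultures, so the spread between them may be technical, and each line stands for itself only. In such bulk samples, fewer cells holding a transcript and less of it per cell cannot be told apart.

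Replication starts from origins that the 6-subunit origin recognition complex (ORC) marks. There CDC6 and CDT1 load the MCM2-7 helicase in G1 phase, geminin (GMNN) blocks reloading later in the cycle, and MCM10, CDC45 and the GINS complex turn the loaded helicase into a moving one at the entry into S phase. Polymerase alpha-primase then primes both strands, polymerases epsilon and delta extend them on the PCNA clamp that replication factor C (RFC) opens, RPA coats the single strands, FEN1 and LIG1 join the Okazaki fragments, and ribonucleotide reductase (RRM1 with RRM2) supplies the deoxynucleotides. Many of these genes are known targets of E2F factors, which switch them on as cells approach S phase.

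The summed FPKM of the 43 members was 2599.94 and 2317.78 in the DMSO libraries of Ku, 2029.13 and 1898.16 at 50 nM, and 1157.75 and 1105.07 at 250 nM. In Cov the sum went from 3597.36 and 3985.24 in DMSO to 1849.52 and 1978.49 at 50 nM and 1214.77 and 1231.69 at 250 nM. The groups did not overlap in either line. The ERCC RNAs had library medians between -0.0058 and 0.0451 on the log2 scale around DMSO (53 RNAs in Ku and 48 in Cov). Levels had been normalized to these RNAs, so this was fixed in advance and is no separate check of the falls. Of 10 serous and epithelial markers, 8 in Ku and 9 in Cov were above 1 FPKM in a DMSO library (MUC16 and CDH1 were not in Ku, nor WT1 in Cov), and they summed to 4762 to 5009 FPKM in Ku DMSO libraries and 3692 to 4116 in Cov. Of 5 leukocyte markers 1 passed in each line (CD68), and PTPRC reached at most 0.299 FPKM, the 5 summing to 2.52 to 3.65 FPKM in Ku DMSO libraries and 4.27 to 5.10 in Cov. The 5 fibroblast markers summed to at most 3.25 FPKM in Ku DMSO libraries, and to 43.96 to 47.8 in Cov, where COL1A2 reached 44.1. Of 4 endothelial markers, CDH5 passed in both lines and VWF in Ku, whereas PECAM1 reached at most 0.378 FPKM, and the 4 summed to 10.48 to 11.9 FPKM in Ku DMSO libraries and to 8.53 to 9.06 in Cov. At 250 nM the serous and epithelial sum was 2320 to 2434 FPKM in Ku and 1815 to 2112 in Cov, the leukocyte sum 2.09 to 2.27 and 1.96 to 2.13, the fibroblast sum 1.35 to 1.504 and 21.4 to 24.99, and the endothelial sum 6.82 to 7.002 and 3.63 to 3.73. All were below their DMSO ranges, as was the sum of the proliferation markers MKI67 and TOP2A, which went from 136 to 159 FPKM in Ku and 254 to 288 in Cov to 50.8 to 54.8 and 57.5 to 61.2, and their part in the results was not tested. The replicates were not level for the members: in DMSO, replicate 1 exceeded replicate 2 for 42 of 43 members in Ku, by a median of 0.16 on the log2 scale, and for 1 of 43 in Cov. At 50 nM it did so for 34 in Ku and 4 in Cov, and at 250 nM for 24 and 30.

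A gene was called lower or higher when its log2 fold change was beyond 0.5 and its adjusted p from limma under 0.001 on the log2(FPKM + 1) scale, each line being fitted apart over the 14251 active genes. In Ku, 5 of 43 members fell at 50 nM, where 11.3% of active genes did, and 36 fell at 250 nM, against 68.6% of active genes. In Cov, all 43 fell at 50 nM and all 43 at 250 nM, against 70.5% and 84% of active genes. No member was called higher than DMSO in either line, and few active genes were, at 0.0842% and 0.0491% in Ku and 0.0772% and 0.105% in Cov at 50 nM and 250 nM. Between the doses, 26 members were lower at 250 nM than at 50 nM in Ku and 16 in Cov, against 36% and 24.4% of active genes, and no member was higher, against 0.0421% and 0.0842% of active genes. The 3 members with a value above 0 at 50 nM in Ku (ORC6, GMNN and GINS2) had unadjusted p of 0.63, 0.74 and 0.15 in limma. The members' median log2 fold change was close to that of all active genes in Ku, at -0.35 against -0.40 at 50 nM and -1.08 against -1.11 at 250 nM, and lay below it in Cov, at -0.96 against -0.85 and -1.69 against -1.31. These gaps moved with the setting: a pseudocount of 0.1 gave -0.36 against -0.49 and -1.19 against -1.39 in Ku, and -1.03 against -1.002 and -1.82 against -1.55 in Cov. A minimum of 10 FPKM gave active-gene medians of -0.42 and -1.29 in Ku and -0.92 and -1.50 in Cov at 50 nM and 250 nM. With that minimum, 7 and 38 members were lower in Ku, against 15.5% and 82.5% of active genes. In Cov all 43 were lower at both doses, against 80.3% and 94%.

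Both DMSO libraries exceeded both 50 nM libraries, and these exceeded both 250 nM libraries, for 33 members in Ku and 40 in Cov. Over the active genes the same held for 66.7% and 73.8%. The Ku count at 50 nM rested on every library, since it was 0 when any 1 of the 6 was left out, with 0.0421% to 0.919% of active genes called lower then. With all libraries, 28 of 43 members had an unadjusted p under 0.05, as had 8900 of 14251 active genes. In Cov the count at 50 nM was 21 without DMSO replicate 2, where the share of active genes was 30.3%, and the members that lost their call were ORC3, ORC4, ORC6, GMNN, MCM2, MCM5, MCM7, CDC45, GINS4, POLA1, PRIM2, POLD1, POLD2, POLE, POLE2, PCNA, RFC3, RFC5, LIG1, RPA1, RPA3 and RRM1. Between the doses, the Ku count was 4 and 8 without 50 nM replicates 1 and 2 (5.89% and 11.2% of active genes) and 2 and 5 without 250 nM replicates 1 and 2 (5.55% and 7.17%), and the Cov count was 10 and 9 without 250 nM replicates 1 and 2 (11.9% and 10.7%).

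These falls are measured against the spike-ins, and most active genes moved down together. When the libraries of a line were instead brought to the same level by the median of ratios, the median of all active genes went to -0.08 in Ku and -0.02 in Cov at 250 nM, and that of the members to 0.15 and -0.25. At 50 nM these medians were -0.02 and -0.03 for active genes and 0.11 and -0.04 for members. Then 12 members were lower and 8 higher at 250 nM in Ku, where 21.7% of active genes were lower and 8.54% higher, and 13 were lower and 1 higher in Cov, where 19.9% were lower and 7.25% higher. At 50 nM, 3 members were lower in Ku (GINS1, POLA2 and PRIM1, against 4.01% of active genes), the calls of CDT1 and RPA2 being lost, and 2 in Cov (GINS1 and POLD3, against 1.03%), with none higher (0.533% and 0.126%). From 50 nM to 250 nM, 7 were lower and 2 higher in Ku (11.7% and 1.39%), and 6 were lower and none higher in Cov (7.8% and 0.519%). The 10 members that were lower at 250 nM under either scaling in both lines, 10 of the 12 in Ku and 10 of the 13 in Cov, were ORC1, ORC5, CDT1, MCM10, GINS1, GINS3, POLA2, POLD3, RFC1 and FEN1. How many active genes were lower in both lines in the same way was not counted, so no share stands beside this overlap. ORC2 and RFC4 were also lower in Ku, and CDC6, GMNN and PRIM1 in Cov, and no other call of a fall at 250 nM was kept under this scaling. The 8 that turned higher in Ku were MCM2, MCM4, MCM6, CDC45, POLA1, LIG1, RPA1 and RRM1, and RPA1 did so in Cov. Rescaled values were above 0 for 26 members at 50 nM and 27 at 250 nM in Ku, and for 20 and 16 in Cov. Below, rescaled values stand beside the log2 fold changes of members described singly, mostly where the sign differs.

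**Figure D1:**
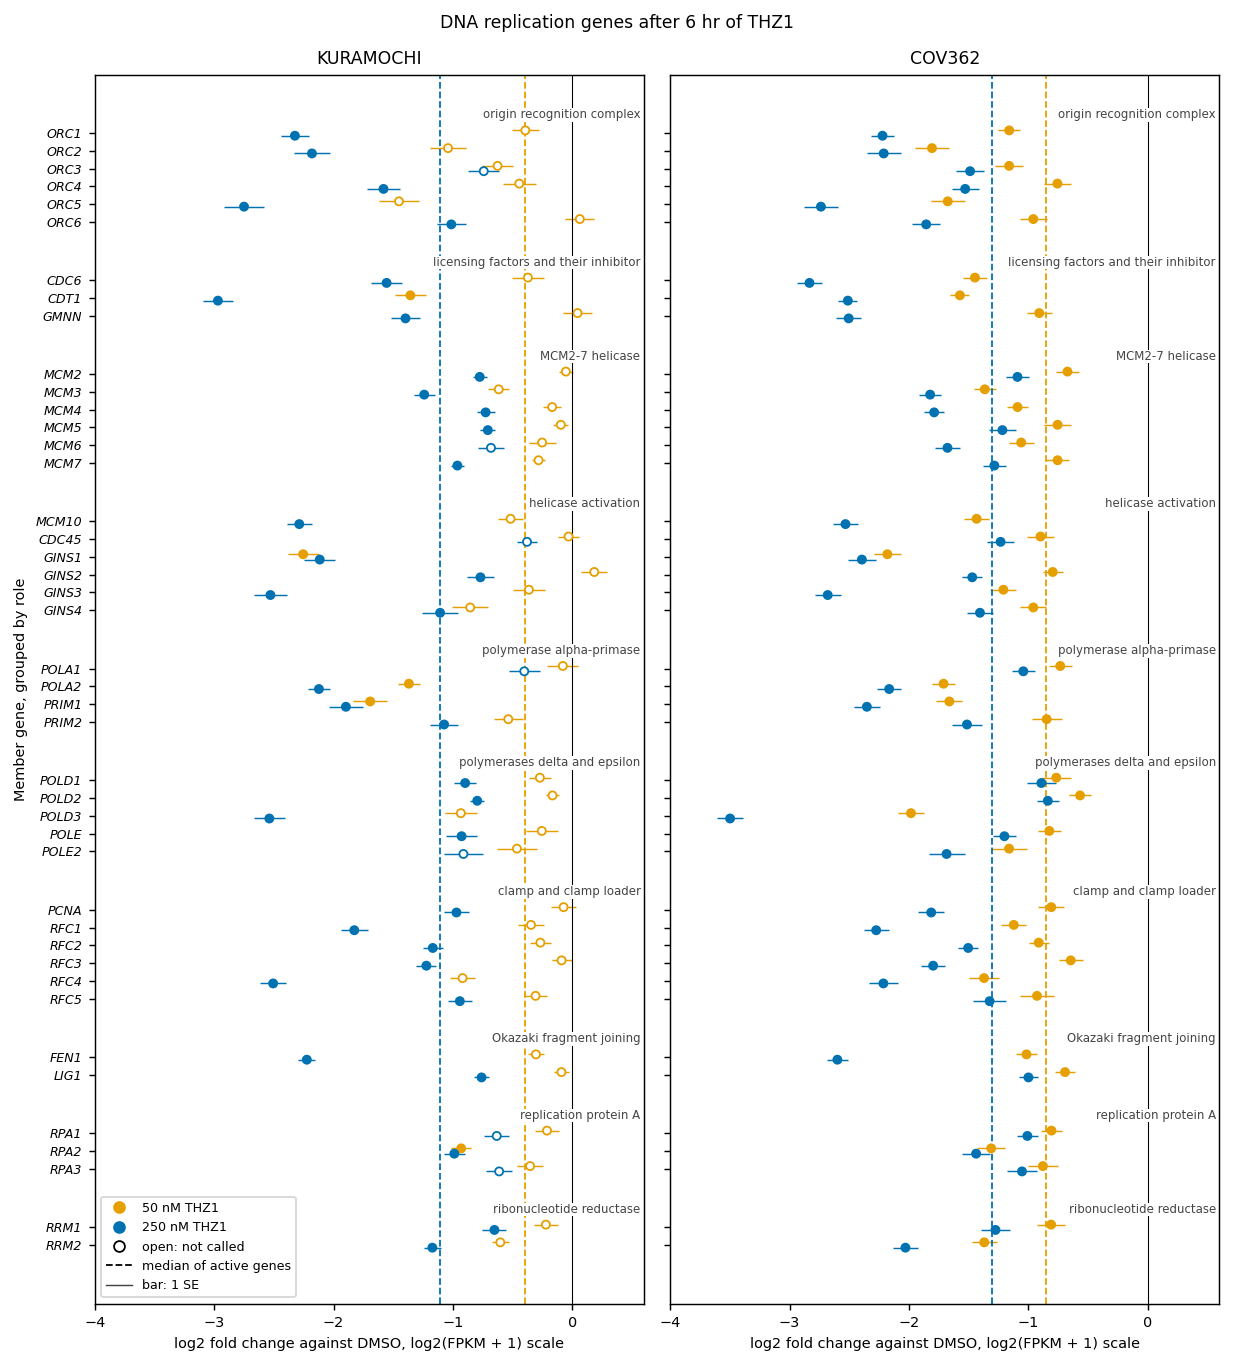
Log2 fold change against DMSO of each of the 43 members, grouped by role (vertical axis), at 50 nM (orange) and 250 nM (blue) in each line; horizontal bars are 1 SE, filled points passed the call, and dashed lines are the medians of 14251 active genes. In Ku 5 points are filled at 50 nM and 36 at 250 nM, in Cov all 43 at both doses, and members of 1 complex lie far apart.

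An E2F site stood in the promoters of 13 members, a larger share than among active genes. In the 250 bases before the start of each gene (RefSeq, build GRCh38.p14, 37 of 43 members matched, with 47 windows), the letters TTTCCCGC, TTTGGCGC, TTTGCCGC or TTTCGCGC were searched on both strands. These 13 of 37 members (35.1%) compare with 5.54% of 10050 active genes and 3.40% of all 27305 genes in the table. The holders were ORC3, CDT1, GMNN, MCM3, MCM6, MCM7, GINS2, POLA1, POLA2, POLE, PCNA, RFC3 and LIG1. The stretches below carry the same kind of site in genes whose call differed at 50 nM in Ku. There CDT1 and POLA2 were called lower, though not when any 1 library was left out, and GMNN, PCNA, GINS2 and MCM6 were not called. In Cov all of these genes were called lower at 50 nM. A part of the site in the response was not tested. Capitals mark the site, and where they read GCGGGAAA the site is TTTCCCGC on the other strand.
CDT1: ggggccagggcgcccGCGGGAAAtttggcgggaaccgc
POLA2: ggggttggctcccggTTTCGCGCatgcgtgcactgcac
GMNN: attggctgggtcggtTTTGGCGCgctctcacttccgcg
PCNA: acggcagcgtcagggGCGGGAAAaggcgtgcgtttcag
GINS2: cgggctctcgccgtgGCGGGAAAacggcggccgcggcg
MCM6: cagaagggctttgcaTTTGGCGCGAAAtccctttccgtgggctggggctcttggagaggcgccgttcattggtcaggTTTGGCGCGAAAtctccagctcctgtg
They lie upstream of the start at chr16:88803739-88803776 (+ strand, CDT1), chr11:65261894-65261931 (+, POLA2), chr6:24775318-24775355 (+, GMNN), chr20:5126659-5126696 (-, PCNA), chr16:85688963-85689000 (-, GINS2) and chr2:135876507-135876610 (-, MCM6). In MCM6 each block of capitals is a site read on one strand that shares bases with a site on the other, giving 4 overlapping matches in 2 blocks.

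Among the members, those with the site had the smaller median fall, and among active genes those with it had the larger. At 250 nM the median log2 fold change was -0.96 over the 13 members with it and -1.37 over the 24 without it in Ku, and -1.68 against -1.94 in Cov, and at 50 nM it was -0.25 against -0.37 and -0.82 against -1.07. Over the active genes the medians with and without the site were -1.22 and -1.16 in Ku and -1.45 and -1.36 in Cov at 250 nM. Members with an E-box also had the smaller median fall at this dose, at -0.96 against -1.17 in Ku and -1.29 against -1.82 in Cov. Over active genes these E-box medians were -1.21 against -1.15 in Ku and -1.36 against -1.36 in Cov. For members with and without the CCAAT box they were -0.97 against -1.40 in Ku, but -1.81 against -1.74 in Cov. The CCAAT box (CCAAT) stood before the start of 62.2% of the 37 members, against 41.5% for active genes and 37.0% for all genes in the table. The E-box CACGTG, the site read by MYC and its partners, was in 13.5% (ORC4, MCM2, MCM7, FEN1 and RPA1), against 11.3% and 7.73%. The CHR element TTTGAA, known from genes of the later cell cycle, was in 1 member (RRM1, 2.70%), against 12.01% and 16.1%. These matches are a description of the letters in the windows, not of binding.

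**Figure D2:**
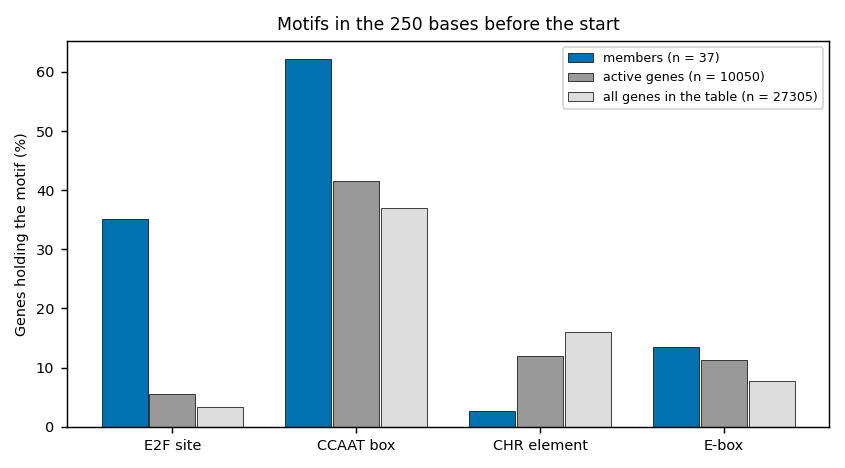
Percentage of genes (vertical axis) whose 250 bases before the start hold each motif on either strand, for 37 members (blue), 10050 active genes (dark grey) and 27305 genes in the table (light grey). The E2F site stands out in the members, at 35.1% against 5.54% and 3.40%.

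Of the ORC subunits, 5 of 6 fell at 250 nM in Ku and all 6 in Cov, beside 68.6% and 84% of active genes. ORC5, a subunit of the ring that encircles DNA, fell furthest at that dose in both. In Ku it measured 21.4 and 17.3 FPKM in DMSO, 7.14 and 5.68 at 50 nM and 1.83 and 2.18 at 250 nM. In Cov its levels were 25.9 and 29.2 FPKM in DMSO, 7.39 and 8.49 at 50 nM and 3.81 and 2.79 at 250 nM. The 3 conditions were separate in both lines, and at 250 nM the log2 fold change was -2.75 ± 0.17 (SE) in Ku (adjusted p = 2.3e-05) and -2.74 ± 0.14 in Cov (adjusted p = 1.9e-06), which left 10.4% and 11.99% of the DMSO mean. ORC3, another subunit of the core complex, moved least at 250 nM in both lines. ORC3 measured 41.9 and 34.5 FPKM in DMSO, 25.9 and 22.8 at 50 nM and 24.1 and 20.7 at 250 nM in Ku. In Cov it measured 26.1 and 27.8 FPKM in DMSO, 10.51 and 12.5 at 50 nM and 9.70 and 8.24 at 250 nM. Ku ORC3 was below DMSO at 50 nM already, the 2 doses overlapped, and from 50 nM to 250 nM the log2 change was -0.12 (95% interval -0.44 to 0.20; rescaled, 0.72). Its value at 250 nM in Ku, -0.74 ± 0.13, missed the call (adjusted p = 0.0018) and was 0.56 when rescaled, whereas Cov ORC3 fell with a log2 fold change of -1.49 ± 0.12.

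ORC1, the cell-cycle-regulated subunit, and ORC2 fell at 250 nM to 17.2% and 18.4% of DMSO in Ku and to 17.1% and 16.2% in Cov. ORC4 kept 28.4% and 22.2%. ORC6, the subunit outside the ring, measured 36.8 and 32.5 FPKM in DMSO, 40.2 and 32.5 at 50 nM and 16.8 and 16.4 at 250 nM in Ku. Its 50 nM libraries overlapped DMSO there (0.06 ± 0.12, adjusted p = 0.68; rescaled, 0.52), and its fall at 250 nM, -1.01 ± 0.12 (rescaled, 0.27), was not called without either DMSO library or either 250 nM library. In Cov, ORC6 had fallen at 50 nM to a log2 fold change of -0.96 ± 0.12 (without either DMSO library it was not called; rescaled, -0.015), and at 250 nM to a log2 fold change of -1.86 ± 0.12.

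All 3 licensing genes fell at 250 nM in both lines, as did 68.6% of active genes in Ku and 84% in Cov. CDT1, which brings the helicase to the origin, was among the few members called at 50 nM in Ku. It measured 27.1 and 25.6 FPKM in DMSO, 8.69 and 10.7 at 50 nM and 2.52 and 2.45 at 250 nM there. The Cov libraries gave 49.9 and 50.6 FPKM in DMSO, 16.2 and 16.3 at 50 nM and 7.94 and 8.04 at 250 nM. All groups were separate, the log2 fold change at 50 nM was -1.36 ± 0.13 in Ku (adjusted p = 0.00064; rescaled, -0.89 and not called) and -1.57 ± 0.08 in Cov (adjusted p = 2.1e-05; rescaled, -0.62 and not called), and at 250 nM it was -2.97 ± 0.13 and -2.51 ± 0.08, the largest fall of any member in Ku, where 3.9% of active genes ranked lower.

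Geminin, the protein that holds CDT1 inactive, was called lower only at 250 nM in Ku and at both doses in Cov (rescaled in Cov at 50 nM, 0.065). GMNN measured 152 and 123 FPKM in DMSO, 147 and 135 at 50 nM and 54.7 and 47.8 at 250 nM in Ku. Levels in Cov were 131 and 144 FPKM in DMSO, 69.3 and 76.3 at 50 nM and 25.05 and 21.8 at 250 nM. In Ku the 50 nM libraries lay within the DMSO range (0.04 ± 0.12, 95% interval -0.26 to 0.34; rescaled, 0.52), and the whole fall came between the doses (-1.44 ± 0.12, adjusted p = 0.00018; rescaled, -0.59 and not called), a step not called when any of the 50 nM or 250 nM libraries was left out. At 250 nM GMNN had fallen with a log2 fold change of -1.40 ± 0.12 in Ku (rescaled, -0.07 and not called) and -2.51 ± 0.10 in Cov (rescaled, -0.96 and called). CDC6, the loader's ATPase, measured 51.4 and 41.7 FPKM in DMSO, 38.1 and 33.2 at 50 nM and 16.2 and 14.1 at 250 nM in Ku. In Cov, CDC6 measured 49.9 and 55.7 FPKM in DMSO, 17.5 and 19.98 at 50 nM and 6.55 and 6.52 at 250 nM. It fell at 250 nM to a log2 fold change of -1.56 ± 0.13 in Ku (rescaled, -0.27 and not called) and -2.83 ± 0.10 in Cov, where it was the second furthest of the members on this scale after POLD3. By percentage of DMSO, CDC6 kept 12.4% in Cov, and GINS3 (10.2%) and ORC5 (11.99%) kept less.

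Of the MCM2-7 subunits, none of the 6 was called at 50 nM in Ku, where log2 fold changes ran from -0.62 for MCM3 to -0.05 for MCM2, and 5 were at 250 nM. Of active genes, 11.3% and 68.6% were called lower there. The values of all 6 at 250 nM ran from -1.24 to -0.68, the latter that of MCM6, which was not called, and their median of -0.75 lay above the active-gene median of -1.11. In Cov all 6 fell at both doses, as did 70.5% of active genes at 50 nM and 84% at 250 nM. The medians of the 6 were -0.91 and -1.48, against -0.85 and -1.31 over active genes. At 50 nM in Cov the rescaled values were above 0 for MCM2, MCM5 (0.22) and MCM7 (0.23). MCM2 measured 91.8 and 86.4 FPKM in DMSO, 85.2 and 86.2 at 50 nM and 51.4 and 51.8 at 250 nM in Ku. The Cov values of MCM2 were 144 and 157 FPKM in DMSO, 93.6 and 94.01 at 50 nM and 64.6 and 75.6 at 250 nM. The Ku value at 50 nM was -0.05 ± 0.06 (95% interval -0.20 to 0.09; rescaled, 0.42), and at 250 nM MCM2 fell with a log2 fold change of -0.78 ± 0.06 in Ku and -1.09 ± 0.10 in Cov, values that were 0.55 and 0.47 when rescaled. Its Cov value at 50 nM, -0.67 ± 0.10 (rescaled, 0.30), was not called without either DMSO or either 50 nM library. Of the exon bases of MCM2, 23.6% are shared with an antisense transcript, and the strand setting of the quantification was not given in the sources used here.

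MCM3 measured 55.03 and 49.4 FPKM in DMSO, 35.2 and 32.2 at 50 nM and 22.1 and 20.9 at 250 nM in Ku. In Cov, MCM3 measured 188 and 212 FPKM in DMSO, 74.3 and 79.7 at 50 nM and 54.4 and 57.1 at 250 nM. It fell furthest of the 6 at 250 nM in both lines, to 41.1% of DMSO in Ku (-1.24 ± 0.09; rescaled, 0.06) and 27.9% in Cov (-1.82 ± 0.09). MCM6, whose promoter carries the 4 overlapping E2F matches, moved least of the 6 at 250 nM in Ku. Its levels were 94.6 and 77.99 FPKM in DMSO, 75.4 and 68.6 at 50 nM and 55.97 and 50.5 at 250 nM. All 3 conditions were separate, yet the value at 250 nM, -0.68 ± 0.11, was not called (adjusted p = 0.0014; without DMSO replicate 2, -0.82 and called), and it was 0.64 when rescaled. In Cov, MCM6 measured 134 and 152 FPKM in DMSO, 63.4 and 72.6 at 50 nM and 45.3 and 42.5 at 250 nM, and it fell at 250 nM to a log2 fold change of -1.68 ± 0.10. MCM4, MCM5 and MCM7 kept between 50.98% and 60.4% of DMSO at 250 nM in Ku, and between 28.4% and 42.6% in Cov, where rescaled values were above 0 for MCM5 (0.33) and MCM7 (0.28) as they were for all 3 in Ku.

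The helicase activation genes spread widest of the roles in Ku. The 4 GINS subunits form 1 complex in equal numbers, but their transcripts followed different courses. GINS1 measured 21.8 and 18.3 FPKM in DMSO, 3.42 and 3.37 at 50 nM and 3.72 and 3.96 at 250 nM in Ku. In Cov the values were 13.7 and 15.7 FPKM in DMSO, 2.24 and 2.67 at 50 nM and 1.96 and 1.99 at 250 nM. Both THZ1 doses stood far below DMSO and close to each other, with log2 fold changes at 50 nM of -2.26 ± 0.13 in Ku (adjusted p = 0.00025; rescaled, -1.78) and -2.18 ± 0.11 in Cov (adjusted p = 2.2e-05; rescaled, -1.31), where only 1.0% and 1.1% of active genes ranked lower. From 50 nM to 250 nM it changed by 0.14 (95% interval -0.18 to 0.46) in Ku and -0.21 (-0.49 to 0.06) in Cov, and rescaled this step was 0.85, called higher, in Ku and 0.21 in Cov.

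In Ku GINS3 took the opposite course, and in Cov it was already called lower at 50 nM, at 39.5% of DMSO (rescaled, -0.31 and not called). Its Ku values were 13.5 and 12.4 FPKM in DMSO, 10.8 and 8.95 at 50 nM and 1.37 and 1.45 at 250 nM. Cov gave 14.4 and 17.01 FPKM in DMSO, 6.17 and 6.25 at 50 nM and 1.63 and 1.57 at 250 nM. At 50 nM in Ku it was -0.36 ± 0.14 (adjusted p = 0.062; rescaled, 0.07), and most of the fall lay between the doses, -2.17 ± 0.14 in Ku (adjusted p = 8.1e-05; not called without 250 nM replicate 1) and -1.47 ± 0.11 in Cov (adjusted p = 7.6e-05). The fall from DMSO at 250 nM came to -2.53 ± 0.14 and -2.68 ± 0.11, the largest of the group in both lines. An antisense transcript shares 10.9% of its exon bases.

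GINS2 measured 32.1 and 29.2 FPKM in DMSO, 35.8 and 33.97 at 50 nM and 19.3 and 15.9 at 250 nM in Ku. In Cov it measured 135 and 149.6 FPKM in DMSO, 79.9 and 82.9 at 50 nM and 51.4 and 49.8 at 250 nM. In Ku both 50 nM libraries were above both DMSO libraries (0.18 ± 0.11, adjusted p = 0.2; rescaled, 0.64), and the fall at 250 nM, -0.77 ± 0.11, was not called when any 1 library was left out and was 0.52 when rescaled. In Cov, GINS2 fell at both doses, to log2 fold changes of -0.80 ± 0.08 and -1.47 ± 0.08 (rescaled, 0.18 and 0.08). GINS4 kept 43.2% and 32.03% of DMSO at 250 nM in Ku and Cov, having been at 52.6% and 46.96% at 50 nM (rescaled at 250 nM, 0.13 in Ku). An antisense transcript shares 21.0% of its exon bases.

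CDC45, the partner of GINS on the helicase, was the member that moved least at 250 nM in Ku. It measured 31.7 and 29.00 FPKM in DMSO, 28.2 and 31.2 at 50 nM and 23.3 and 22.9 at 250 nM there. The Cov levels were 46.3 and 52.7 FPKM in DMSO, 23.9 and 28.3 at 50 nM and 20.99 and 19.9 at 250 nM. In Ku the 50 nM libraries overlapped DMSO, and the 250 nM value of -0.38 ± 0.09 was not called (adjusted p = 0.0056) and was 0.91 when rescaled, called higher. Cov CDC45 fell at 250 nM to a log2 fold change of -1.23 ± 0.11 (rescaled, 0.29). MCM10, which acts at the same step, kept 16.6% and 12.8% of DMSO at 250 nM in Ku and Cov, after 68.3% and 33.6% at 50 nM.

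**Figure D3:**
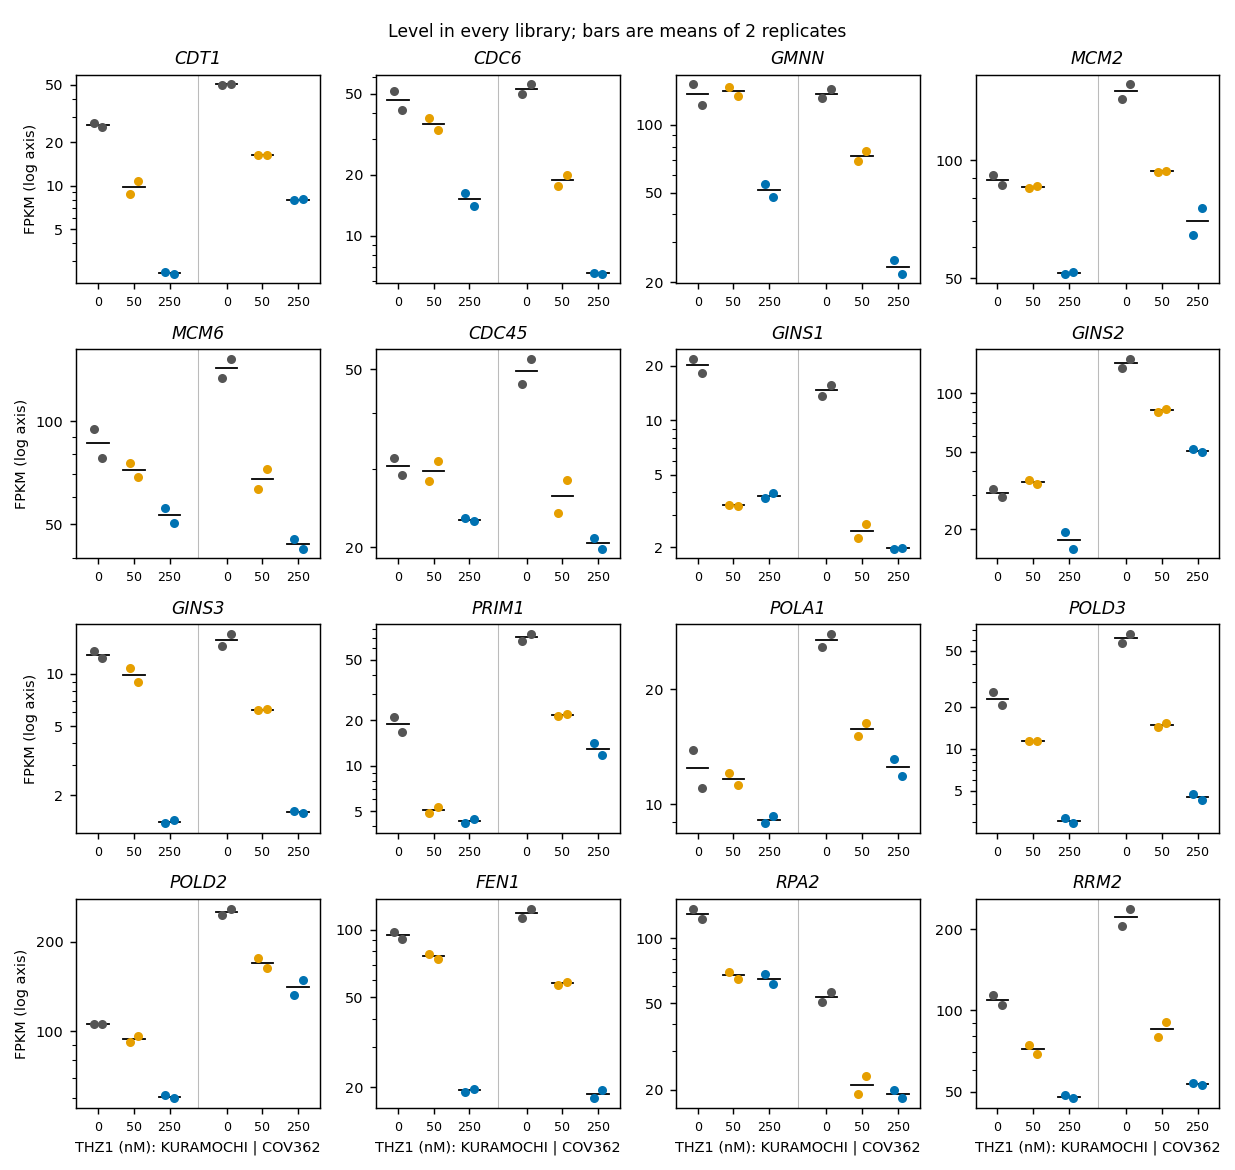
FPKM on a log axis in every library of 16 members, with DMSO (0), 50 nM and 250 nM THZ1 on the horizontal axis for KURAMOCHI on the left of each panel and COV362 on the right; points are libraries and bars are means of 2. GINS1, PRIM1 and RPA2 were down at 50 nM with little further change in Ku, whereas GMNN and GINS3 dropped mainly between the doses.

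The subunits of polymerase alpha-primase parted. POLA1, the catalytic subunit of the polymerase, moved least in both lines at 250 nM. Its Ku values were 13.8 and 11.1 FPKM in DMSO, 12.1 and 11.2 at 50 nM and 8.92 and 9.31 at 250 nM. Cov gave 25.7 and 27.9 FPKM in DMSO, 15.1 and 16.3 at 50 nM and 13.2 and 11.8 at 250 nM. Ku libraries at 50 nM lay within the DMSO range, and the value at 250 nM, -0.40 ± 0.13, was not called (adjusted p = 0.024). In Cov POLA1 fell at 250 nM to a log2 fold change of -1.04 ± 0.10. Rescaled, these were 0.83 and 0.45. POLA2, its accessory subunit, measured 49.8 and 44.4 FPKM in DMSO, 18.2 and 16.96 at 50 nM and 9.94 and 10.1 at 250 nM in Ku. In Cov it measured 70.8 and 78.01 FPKM in DMSO, 20.6 and 23.5 at 50 nM and 16.2 and 15.4 at 250 nM. Every group was separate and POLA2 fell at 50 nM in both lines, with a log2 fold change of -1.37 ± 0.09 (adjusted p = 0.00032; rescaled, -0.90) and -1.71 ± 0.10 (adjusted p = 2.2e-05; rescaled, -0.75 and not called), and at 250 nM to a log2 fold change of -2.12 ± 0.09 and -2.17 ± 0.10.

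PRIM1, the subunit that lays down the RNA primer, measured 21.1 and 16.7 FPKM in DMSO, 4.92 and 5.32 at 50 nM and 4.17 and 4.46 at 250 nM in Ku. Levels in Cov were 66.6 and 74.2 FPKM in DMSO, 21.2 and 21.8 at 50 nM and 14.1 and 11.9 at 250 nM. It fell at 50 nM to a log2 fold change of -1.69 ± 0.14 in Ku (adjusted p = 0.00049; rescaled, -1.23) and -1.66 ± 0.11 in Cov (adjusted p = 2.3e-05; rescaled, -0.70 and not called). The step to 250 nM was -0.20 (95% interval -0.56 to 0.15; rescaled, 0.53) in Ku and -0.69 (-0.95 to -0.43) in Cov, neither of them called. PRIM2 kept 42.2% and 33.00% of DMSO at 250 nM, values that are uncertain because PRIM2BP, a pseudogene copy, shares 12.9% of its exon bases, and an annotated lncRNA on the same strand 16.9% (rescaled, 0.08 in Ku). Another annotated protein-coding gene on the same strand shares 16.8% of the exon bases of POLA2 and 10.9% of those of PRIM1.

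Among polymerases delta and epsilon, POLD3 stood apart. This accessory subunit of polymerase delta measured 25.2 and 20.3 FPKM in DMSO, 11.4 and 11.4 at 50 nM and 3.22 and 2.93 at 250 nM in Ku. Its levels in Cov were 57.00 and 65.98 FPKM in DMSO, 14.2 and 15.3 at 50 nM and 4.75 and 4.29 at 250 nM. The 3 conditions were separate in both lines, and the fall at 250 nM, -2.54 ± 0.13 (adjusted p = 1.5e-05) and -3.50 ± 0.11 (adjusted p = 8.2e-07), was in Cov the largest of any member, leaving 7.35% of DMSO. POLD2, the subunit that POLD3 binds, was at the other end. POLD2 measured 106 and 106 FPKM in DMSO, 91.9 and 96.5 at 50 nM and 61.3 and 59.6 at 250 nM in Ku. The Cov libraries gave 246 and 258 FPKM in DMSO, 177 and 163 at 50 nM and 132 and 149 at 250 nM. Its falls at 250 nM of -0.80 ± 0.06 and -0.84 ± 0.09 were the smallest of the group, and they were 0.53 and 0.73 when rescaled. Its Cov value at 50 nM, -0.57 ± 0.09 (rescaled, 0.41), was not called without either DMSO or either 50 nM library.

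The catalytic subunits POLD1 and POLE kept 52.3% and 50.6% of DMSO at 250 nM in Ku, and 53.05% and 40.6% in Cov, with rescaled values above 0 in both lines. POLD1 libraries at 50 nM and 250 nM overlapped in Cov. POLE2, an accessory subunit of polymerase epsilon, measured 11.9 and 8.65 FPKM in DMSO, 7.46 and 6.72 at 50 nM and 4.89 and 4.96 at 250 nM in Ku. The groups were separate, but the value at 250 nM, -0.91 ± 0.17, was not called (adjusted p = 0.0021; without DMSO replicate 2, -1.12 and called; rescaled, 0.26). In Cov, POLE2 measured 11.2 and 12.7 FPKM in DMSO, 4.11 and 5.52 at 50 nM and 3.34 and 2.72 at 250 nM, and its fall at 250 nM was -1.69 ± 0.15.

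PCNA, the clamp, was one of the most abundant members. It measured 256 and 228 FPKM in DMSO, 248 and 213 at 50 nM and 129.7 and 116 at 250 nM in Ku. In Cov its libraries gave 348 and 389 FPKM in DMSO, 192 and 229 at 50 nM and 106 and 101 at 250 nM. The 50 nM libraries overlapped DMSO in Ku (-0.07 ± 0.10, 95% interval -0.33 to 0.18; rescaled, 0.40) and fell below it in Cov (-0.81 ± 0.11, adjusted p = 0.00031; not called without DMSO replicate 2 or 50 nM replicate 1; rescaled, 0.17). At 250 nM PCNA fell with a log2 fold change of -0.97 ± 0.10 in Ku (adjusted p = 0.00018; not called without DMSO replicate 1 or 250 nM replicate 2; rescaled, 0.36) and with a log2 fold change of -1.81 ± 0.11 in Cov (adjusted p = 3.4e-06).

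All 5 RFC subunits fell at 250 nM in both lines (68.6% and 84% of active genes did), by unequal amounts. RFC4, a small subunit of the clamp loader, fell furthest at that dose in Ku. It measured 75.6 and 63.3 FPKM in DMSO, 37.8 and 34.5 at 50 nM and 10.9 and 11.8 at 250 nM there. Cov values of RFC4 were 113 and 121 FPKM in DMSO, 40.4 and 49.5 at 50 nM and 26.3 and 22.8 at 250 nM. The fall at 250 nM was -2.51 ± 0.11 in Ku and -2.21 ± 0.12 in Cov. RFC1, the large subunit, measured 31.9 and 26.8 FPKM in DMSO, 23.9 and 21.7 at 50 nM and 7.34 and 7.70 at 250 nM in Ku. In Cov the levels of RFC1 were 63.4 and 70.4 FPKM in DMSO, 28.1 and 32.3 at 50 nM and 13.5 and 12.5 at 250 nM. At 250 nM it fell with a log2 fold change of -1.83 ± 0.11 and -2.28 ± 0.10, in Cov the furthest of the group. RFC5 moved least at 250 nM, with 33.2 and 28.04 FPKM in DMSO, 24.3 and 24.6 at 50 nM and 15.7 and 15.1 at 250 nM in Ku. In Cov, RFC5 measured 39.3 and 45.4 FPKM in DMSO, 19.1 and 24.7 at 50 nM and 17.2 and 15.3 at 250 nM. Its falls at 250 nM were -0.94 ± 0.10 in Ku (not called without either 250 nM library) and -1.33 ± 0.14 in Cov, and rescaled they were 0.34 and 0.19. RFC2 and RFC3 kept 43.6% and 42.1% of DMSO in Ku, and 34.7% and 27.2% in Cov, and rescaled RFC2 was above 0 in both lines (0.14 and 0.05) and RFC3 in Ku (0.09).

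The Okazaki fragment enzymes parted at the higher dose. FEN1, the flap nuclease, measured 97.8 and 90.7 FPKM in DMSO, 78.3 and 73.7 at 50 nM and 19.03 and 19.7 at 250 nM in Ku. Cov levels were 113 and 124 FPKM in DMSO, 57.01 and 58.7 at 50 nM and 17.8 and 19.5 at 250 nM. In Ku the 50 nM value was -0.31 ± 0.07 (adjusted p = 0.012; rescaled, 0.17), and the step to 250 nM was -1.92 ± 0.07 (adjusted p = 3.9e-05). In Cov the FEN1 values were -1.02 ± 0.09 at 50 nM and -1.58 ± 0.09 for the step (adjusted p = 4e-05). LIG1, the ligase, measured 72.7 and 67.6 FPKM in DMSO, 67.3 and 64.1 at 50 nM and 41.1 and 40.8 at 250 nM in Ku. In Cov, LIG1 measured 34.8 and 34.9 FPKM in DMSO, 20.7 and 21.6 at 50 nM and 16.5 and 17.4 at 250 nM. Its falls at 250 nM were -0.76 ± 0.07 (not called without 250 nM replicate 2) and -0.9996 ± 0.08, which rescaled were 0.56 and 0.51.

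RPA2, the middle subunit of the single-strand binding complex, was already down at 50 nM. Ku libraries gave 136 and 122 FPKM in DMSO, 69.4 and 65.05 at 50 nM and 68.05 and 61.2 at 250 nM. In Cov, RPA2 measured 50.6 and 56.5 FPKM in DMSO, 19.03 and 23.02 at 50 nM and 20.01 and 18.2 at 250 nM. The 50 nM and 250 nM libraries overlapped in both lines, with a step of -0.06 (95% interval -0.27 to 0.15) in Ku and -0.13 (-0.40 to 0.15) in Cov, against falls from DMSO at 50 nM of -0.93 ± 0.09 (adjusted p = 0.00061; rescaled, -0.46 and not called) and -1.31 ± 0.12 (adjusted p = 5.4e-05; rescaled, -0.35 and not called). Rescaled, the step was 0.80, called higher, in Ku and 0.44 in Cov. RPA1, the large subunit, measured 44.9 and 37.3 FPKM in DMSO, 36.6 and 33.8 at 50 nM and 26.01 and 26.02 at 250 nM in Ku. Its Cov values were 44.3 and 48.5 FPKM in DMSO, 25.7 and 26.4 at 50 nM and 23.3 and 21.8 at 250 nM. At 250 nM it was -0.63 ± 0.10 in Ku (adjusted p = 0.0013, not called; without DMSO replicate 2, -0.76 and called) and -1.01 ± 0.09 in Cov, and rescaled it was 0.67 and 0.52, called higher in both. RPA3, the small subunit, measured 27.97 and 26.4 FPKM in DMSO, 22.8 and 19.5 at 50 nM and 18.4 and 16.5 at 250 nM in Ku. In Cov it gave 58.3 and 66.8 FPKM in DMSO, 32.5 and 34.5 at 50 nM and 32.99 and 26.5 at 250 nM. Its value at 250 nM was -0.61 ± 0.11 in Ku (adjusted p = 0.0017, not called) and -1.05 ± 0.13 in Cov (called, but not without DMSO replicate 2), and 0.67 and 0.48 when rescaled.

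Ribonucleotide reductase fell in both subunits at 250 nM, as did 68.6% of active genes in Ku and 84% in Cov. RRM2, the subunit that cells make in S phase, measured 114 and 104 FPKM in DMSO, 74.3 and 68.8 at 50 nM and 48.6 and 47.1 at 250 nM in Ku. The Cov levels of RRM2 were 206 and 238 FPKM in DMSO, 79.6 and 90.6 at 50 nM and 53.9 and 52.9 at 250 nM. The groups were separate in both lines, and the fall at 250 nM was -1.17 ± 0.07 in Ku (adjusted p = 2.4e-05; rescaled, 0.15) and -2.03 ± 0.10 in Cov (adjusted p = 1.8e-06). RRM1, the longer-lived large subunit, measured 102 and 86.4 FPKM in DMSO, 84.2 and 76.9 at 50 nM and 61.8 and 57.1 at 250 nM in Ku. Cov RRM1 gave 107 and 122 FPKM in DMSO, 59.8 and 70.05 at 50 nM and 49.5 and 43.8 at 250 nM. Its fall at 250 nM was -0.65 ± 0.10 in Ku, where the call was kept only when DMSO replicate 2 was the library left out, and -1.28 ± 0.12 in Cov, and rescaled these were 0.67 and 0.27.

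Because partners of 1 complex had moved by unequal amounts, the ratio of their FPKM was taken within each library, a value that no scaling of the libraries can change. The 12 pairs were chosen after their values had been seen, mostly with the member that had fallen further as numerator. A lower ratio under THZ1 was thus partly built into the choice, and no share over other gene pairs was taken. The ratios describe the libraries and carry no test. Both 50 nM libraries were below both DMSO libraries for 12 of 12 ratios in Ku and 12 of 12 in Cov, and both 250 nM libraries were for 12 and 11. The GINS1 to GINS2 ratio in Ku was 0.679 and 0.628 in DMSO, 0.0955 and 0.0992 at 50 nM and 0.193 and 0.249 at 250 nM. In Cov it was 0.102 and 0.105 in DMSO, 0.0280 and 0.0323 at 50 nM and 0.0382 and 0.0399 at 250 nM. The mean ratio was thus 6.71 and 3.42 times as high in DMSO as at 50 nM, and the lowest values were at 50 nM rather than 250 nM in both lines.

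GINS3 to GINS2 instead reached its lowest values at 250 nM. In Ku the ratio was 0.420 and 0.424 in DMSO, 0.300 and 0.263 at 50 nM and 0.0712 and 0.0908 at 250 nM. In Cov it was 0.107 and 0.114 in DMSO, 0.0772 and 0.0754 at 50 nM and 0.0317 and 0.0315 at 250 nM. For POLD3 to POLD2 the Ku libraries gave 0.238 and 0.192 in DMSO, 0.124 and 0.118 at 50 nM and 0.0525 and 0.0491 at 250 nM. The Cov libraries gave 0.231 and 0.256 in DMSO, 0.0804 and 0.0941 at 50 nM and 0.0358 and 0.0288 at 250 nM. DMSO means exceeded those at 250 nM 4.24 times in Ku and 7.55 times in Cov, the widest gap of the Cov ratios. PRIM1 to POLA1 in Ku was lower at 50 nM and no lower at 250 nM, with 1.53 and 1.51 in DMSO, 0.408 and 0.473 at 50 nM and 0.467 and 0.480 at 250 nM. In Cov it was 2.59 and 2.66 in DMSO, 1.40 and 1.34 at 50 nM and 1.07 and 1.00 at 250 nM. For the licensing factor and its inhibitor, CDT1 to GMNN in Ku was 0.178 and 0.208 in DMSO, 0.0592 and 0.0796 at 50 nM and 0.0460 and 0.0513 at 250 nM. In Cov the same ratio was 0.382 and 0.351 in DMSO, 0.234 and 0.213 at 50 nM and 0.317 and 0.368 at 250 nM. The Cov libraries at 250 nM overlapped DMSO, the only one of the 24 comparisons at this dose in which the libraries overlapped.

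The remaining ratios can be given by their means. From DMSO to 250 nM, ORC5 to ORC3 dropped 5.56-fold in Ku and 2.79-fold in Cov, POLA2 to POLA1 3.46-fold and 2.19-fold, RFC4 to RFC5 3.07-fold and 1.85-fold, and FEN1 to LIG1 2.84-fold and 3.08-fold. Smaller gaps were found for CDC6 to MCM2 in Ku (1.78-fold, and 3.74-fold in Cov), RRM2 to RRM1 (1.44-fold and 1.69-fold) and RPA2 to RPA1 (1.27-fold and 1.36-fold).

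**Figure D4:**
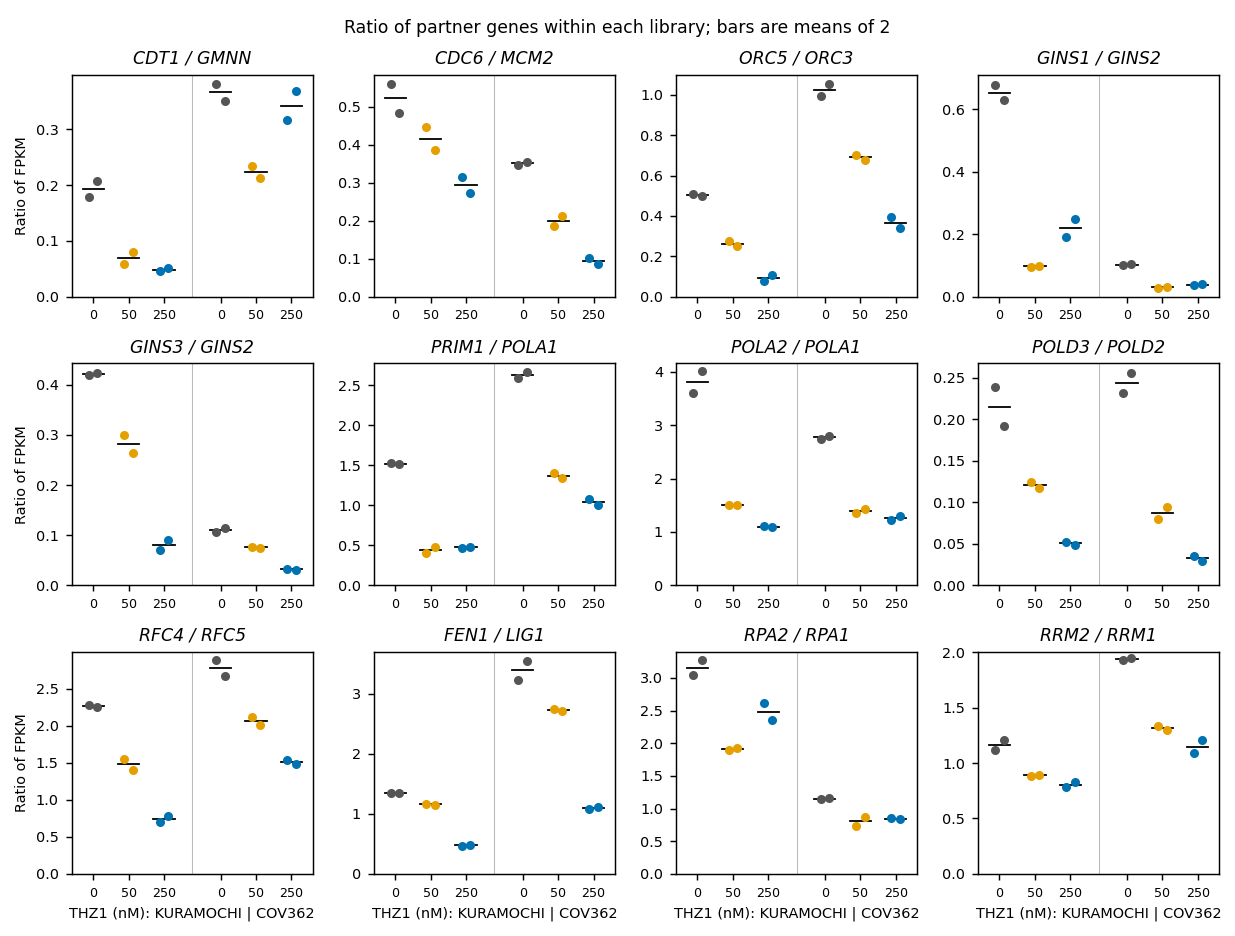
Ratio of FPKM of 12 pairs of partner genes within each library (vertical axis, from 0), by THZ1 dose in nM for KURAMOCHI on the left of each panel and COV362 on the right; points are libraries and bars are means of 2. At 50 nM all 12 ratios lie below DMSO in both lines, and at 250 nM only CDT1 to GMNN in Cov overlaps DMSO. The pairs were chosen after their values had been seen.

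The order of the members was similar in the 2 lines, which share no library. Across the 43 members the log2 fold changes of Ku and Cov gave a Pearson r of 0.848 and a Spearman rho of 0.794 at 50 nM, and 0.845 and 0.850 at 250 nM. Across the 14251 active genes the values were 0.475 and 0.592, and 0.672 and 0.712. An active gene needed to pass 1 FPKM in only 1 line, whereas every member passed it in both, and genes of like level were not compared. These correlations describe the genes, which do not vary independently of one another. The tables of the lines had been normalized separately, so their difference was not tested. Side by side, CDC6 lay at -1.56 in Ku and -2.83 in Cov at 250 nM, GMNN at -1.40 and -2.51, and CDT1 at -2.97 and -2.51.

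**Figure D5:**
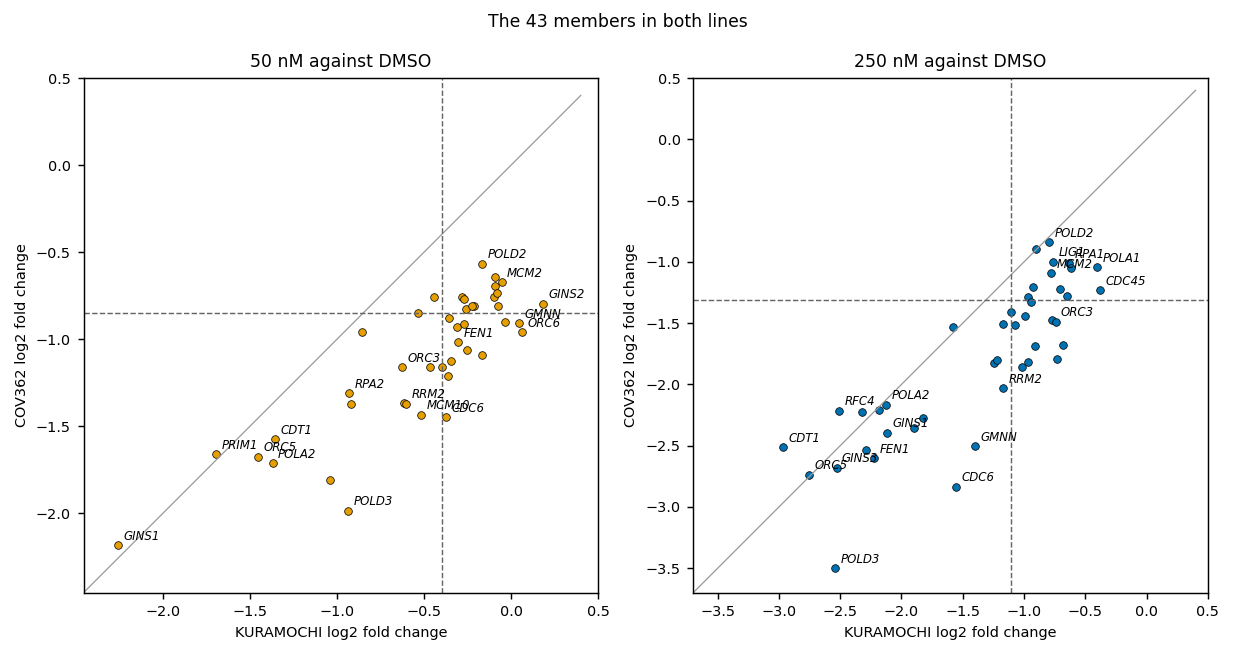
Log2 fold change against DMSO of the 43 members in KURAMOCHI (horizontal axis) and COV362 (vertical axis) at 50 nM and 250 nM; each point is a member, the grey line marks equal values and dashed lines are the medians of the active genes. GINS1 is lowest in both lines at 50 nM, and POLD3 lies lowest in Cov at 250 nM with -3.50, against -2.54 in Ku.

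Other genes of DNA replication were read beside the members. Of 56 (firing kinases, fork protection, clamp unloading, primer removal, chromatin assembly, nucleotide supply, S phase cyclins and their regulators), 8 fell at 50 nM and 49 at 250 nM in Ku, against 11.3% and 68.6% of active genes, and 50 and 55 fell in Cov, against 70.5% and 84%. Their medians were -0.46, -1.40, -1.11 and -1.68, and none was called higher. Rescaled, 19 were lower and 6 higher at 250 nM in Ku, where 21.7% of active genes were lower and 8.54% higher, and 20 were lower and 5 higher in Cov, where 19.9% and 7.25% were. At 50 nM, rescaled counts were 2 lower and 1 higher in Ku (4.01% and 0.533% of active genes) and 2 lower in Cov (1.03%). Between the doses 30 were lower in Ku and 20 in Cov, against 36% and 24.4% of active genes, and rescaled these counts were 16 and 12 (11.7% and 7.8%). The kinase CDC7 that fires origins measured 24.9 and 21.4 FPKM in DMSO, 7.28 and 6.51 at 50 nM and 2.11 and 2.801 at 250 nM in Ku, and it fell at 50 nM to a log2 fold change of -1.61 ± 0.15 in Ku and -2.01 ± 0.13 in Cov (rescaled, -1.15 and -1.11, neither called). Its activator DBF4 was -0.26 ± 0.16 at 50 nM in Ku (not called; rescaled, 0.20) and fell at 250 nM to a log2 fold change of -2.804 ± 0.16 in Ku and -3.30 ± 0.12 in Cov. FBXO5, the inhibitor of the APC/C that protects geminin, fell furthest of the 56, with a log2 fold change of -4.47 ± 0.12 and -4.43 ± 0.11. Cyclin E1 (CCNE1) was -0.14 ± 0.09 at 50 nM in Ku (not called; rescaled, 0.32) and fell with a log2 fold change of -3.44 ± 0.09 and -3.09 ± 0.09 at 250 nM, and E2F3 was -0.27 ± 0.12 (not called; rescaled, 0.19) and fell with a log2 fold change of -3.42 ± 0.12 and -3.33 ± 0.12. At the other end, CHTF18 was the only 1 of the 56 not called at 250 nM in Cov (-0.47 ± 0.15; rescaled, 0.999), and the thymidylate synthase TYMS fell at 250 nM to a log2 fold change of -0.59 ± 0.08 in Ku and -0.98 ± 0.10 in Cov, values that rescaled were 0.75 and 0.59. These genes beyond the list were named after their values were seen.

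The members were of ordinary length and had more exons than most. Their span (GRCh37, GENCODE lifted from a later release) ran from 4.33 kb for FEN1 to 333.8 kb for PRIM2, with a median of 36.8 kb against 33.4 kb over 12075 active protein-coding genes, and their mRNA had a median of 3.07 kb against 3.34 kb and 14 exons against 9. Across the 43 members, the Spearman rho of span with the log2 fold change at 250 nM was 0.03 in Ku and 0.04 in Cov, and that of exon number was 0.32 and 0.35, given as a description. FEN1 (chr11:61560383-61564710, 2 exons) and POLD3 (chr11:74204896-74380162, 12 exons), which differ 40-fold in span, both lay far down, at 20.5% and 13.5% of DMSO at 250 nM in Ku. This pair is only an example, and a part of length in the falls was not tested. Exons of 21 of the 43 members share bases with another annotated gene, and for 6 of them (MCM2, GINS3, GINS4, POLA2, PRIM1 and PRIM2) at least 10% of the exon bases do with a single gene, so that part of their FPKM could come from the other gene.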

How the data were processed

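RNA-seq libraries of KURAMOCHI and COV362 cells were made by the authors with a stranded mRNA kit from RNA matched by cell number and mixed with ERCC RNAs, then aligned to hg19 with HiSat and quantified with the Cufflinks tools. The authors deposited FPKM normalized to the ERCC RNAs, in 1 table per line, and these deposited FPKM were used as they stand. FPKM are not counts, so edgeR, which the study names, was not used, and depth is unknown. For each line, limma 3.58.1 (lmFit and eBayes with trend, two-sided, run under R 4.3.3) was applied to log2(FPKM + 1) of its 3 groups of 2, with Benjamini-Hochberg adjustment over 14251 genes above 1 FPKM in at least 1 library, and calls needed a log2 fold change beyond 0.5 with an adjusted p under 0.001. Percentages of DMSO are ratios of mean FPKM. The members and gene lists were chosen with earlier results of these data known. Members named by rule were MCM2, CDC6, CDT1, GMNN, PCNA, RRM1, RRM2 and, in each role and line, those with the largest and smallest fall at 250 nM. GINS1, GINS2, ORC6, POLE2 and members given only as percentages of DMSO were added after their values were seen. Alternatives were a pseudocount of 0.1, a minimum of 10 FPKM or none, median-of-ratios scaling, a fit of 2 groups, blocking on the replicate number, dropping the trend in eBayes, an adjusted p under 0.05 and leaving out each library. Plots came from Python 3.11.15 with matplotlib 3.10.9.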

Additional observations from a re-analysis of the deposited data

Results flagged for a closer look

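GINS2 at 50 nM took opposite directions in the lines: the log2 fold change was 0.18 in Ku, where both treated libraries were above both DMSO libraries, and -0.80 in Cov, where both were below. The tables had been normalized separately, and the difference was not tested. With median-of-ratios scaling the values were 0.64 and 0.18, so the directions no longer differed.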

How the results depend on the processing

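Values are log2 fold changes unless called counts. Median-of-ratios scaling left 3, 12 and 7 members lower in Ku (50 nM against DMSO, 250 nM against DMSO, 250 nM against 50 nM) and 2, 13 and 6 in Cov, moved the medians over members to 0.11, 0.15 and 0.18 in Ku and -0.04, -0.25 and -0.04 in Cov, and reversed these among the 30 members with values in every library (between the doses, among ORC3, GMNN, GINS1, GINS3, PRIM1, FEN1 and RPA2), rescaled values being above 0 for 26, 27 and 25 of all 43 members in Ku and 20, 16 and 20 in Cov. Ku, 50 nM: CDC6 0.092, MCM2 0.42, MCM6 0.22, CDC45 0.43, GINS3 0.072, POLA1 0.35, POLD2 0.30, PCNA 0.40, RFC1 0.11, RFC5 0.15, FEN1 0.17, LIG1 0.38, RPA1 0.25, RPA3 0.10, RRM1 0.25. Ku, 250 nM: ORC3 0.56, ORC6 0.27, MCM2 0.55, MCM3 0.061, MCM6 0.64, CDC45 0.91, GINS2 0.52, POLA1 0.83, POLD2 0.53, POLE2 0.26, PCNA 0.36, RFC5 0.34, LIG1 0.56, RPA1 0.67, RPA2 0.34, RPA3 0.67, RRM1 0.67, RRM2 0.15. Ku, 250 nM against 50 nM: ORC3 0.72, PRIM1 0.53, RPA2 0.80. Cov, 50 nM: GMNN 0.065, MCM2 0.30, CDC45 0.058, GINS2 0.18, POLA1 0.20, POLD2 0.41, PCNA 0.17, RFC5 0.024, LIG1 0.25, RPA1 0.15, RPA3 0.084, RRM1 0.16. Cov, 250 nM: MCM2 0.47, CDC45 0.29, GINS2 0.083, POLA1 0.45, POLD2 0.73, RFC5 0.19, LIG1 0.51, RPA1 0.52, RPA2 0.085, RPA3 0.48, RRM1 0.27. Cov, 250 nM against 50 nM: ORC3 0.21, GINS1 0.21, RPA2 0.44. The cause was not tested.

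The Ku count at 50 nM was 0 with no minimum FPKM, 0 with a fit of 2 groups and 15 at an adjusted p under 0.05 (0.0127%, 0.0632% and 40.2% of genes tested), and the Ku count between the doses was 11 with no minimum (8.05%). Leaving out 1 library gave 0 to 0 and 25 to 35 members in Ku and 21 to 43 and 41 to 43 in Cov against DMSO, and 2 to 22 and 9 to 15 between the doses, where the shares of active genes were 0.0421% to 0.919%, 42.7% to 63.5%, 30.3% to 69.7%, 73.3% to 86.6%, 5.55% to 32.3% and 10.7% to 27.9%. Among the same members it changed the sign at 50 nM in Ku of ORC6 (-0.088 to 0.21), GMNN (-0.11 to 0.19), CDC45 (-0.10 to 0.040), POLA1 (-0.23 to 0.070) and PCNA (-0.18 to 0.034), and between the doses of RPA2 in Ku (-0.13 to 0.018) and Cov (-0.26 to 0.0047). Deviations of libraries with the same replicate number were hardly correlated across active genes (-0.0703 to 0.0282). This measure cannot show an offset shared by all genes, so whether the number pairs libraries was not settled. With the replicate number as a block (replicate block) the counts were 4, 39 and 25 in Ku and 29, 42 and 6 in Cov (6.94%, 66.6%, 34.7%, 51%, 78.6% and 7.93% of active genes). Over all alternatives and the named members, 1622 values kept their side and direction, 151 lost and 30 gained a call and 73 changed sign. Depth is unknown, and 2 libraries a group limit every call.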
